A study of Homo sapiens with 12 samples.

Results

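The 42 circular RNAs (circRNAs) described here carried the most counts in precipitates of the RNA-binding protein IGF2BP2, once a named set had been put aside. They were chosen by their raw counts: each had at least 61 counts summed over the 6 IGF2BP2 libraries, out of 6384 circRNAs in the table. The rule left out 17 listed circRNAs, of which 16 were in the table used here and 15 reached that sum; the remaining one was not analysed here. That list was drawn up with earlier results of these data known, and the counts below are of what remained. Because the rule used the IGF2BP2 counts, the height of those counts and the ratio to the control antibody are given as a description with no test. Although the left-out list may reflect control counts, the threshold of the rule did not use the control libraries. It summed unscaled RIP counts of both lines, which held 19568 circRNA counts in Res and 14780 in Sens, so it leaned toward Res: 18 members reached 61 counts on Res RIP alone, 1 on Sens RIP alone, 7 on either line and 16 only on the sum. RIP differences between the lines are therefore not independent of the choice of members.

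All libraries came from MDA-MB-231, an established triple-negative breast cancer cell line. Sens denotes the parental cells, wild type and untreated by the labels. Res denotes a derivative with established resistance to BET inhibitors (BETi), kept in BETi until harvest. Resistance and the presence of the drug therefore cannot be told apart, and the labels do not name the inhibitor. Lysates were incubated with 5 µg of an anti-IGF2BP2 monoclonal antibody (RIP) or 5 µg of normal rabbit IgG, with 3 libraries for each of the 4 combinations of line and antibody. Nothing in the labels says that the libraries of a group came from separate cultures, so p-values measure a spread that may be technical.

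IGF2BP2 belongs to a family of cytoplasmic RNA-binding proteins that carry KH domains, associate with many transcripts, including MYC mRNA, and act on their stability and translation. CircRNAs form when a downstream splice donor joins an upstream acceptor; the closed ring lacks free ends and resists exonucleases, so that some rings accumulate. BET proteins read acetylated histones and support transcription of MYC, which links the drug class to a known IGF2BP2 target. In RNA immunoprecipitation, IgG of no specificity measures RNA carried along with the beads. The table names circRNAs by circBase-style identifiers and pairs none with a host gene, so identifiers stand here for genes.

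The libraries held 1960 to 8662 circRNA counts, so a circRNA with no count could still hold up to 3 counts, 0.0346% to 0.153% of a library. Reads carried no molecular identifiers, so limits and intervals cover counting error only. ERCC spike-in transcripts took 93.5% to 97.9% of all counts in the IgG libraries and 7.51% to 12.4% in the RIP libraries. The IgG libraries of a line shared most of their detected circRNAs. Of the circRNAs seen in either of 2 libraries, 81.6% to 87.0% were seen in both in Sens IgG and 79.6% to 82.5% in Res IgG. The range was 25.1% to 27.4% in Sens RIP and 28.6% to 31.2% in Res RIP. The Sens RIP libraries were deeper than the Sens IgG libraries (4448 to 5561 against 1960 to 2989 circRNA counts), and the ranges of the Res libraries overlapped (5179 to 8662 in RIP against 3860 to 6036 in IgG). Counts of the 3 libraries differed beyond sampling noise in every group (chi-square test over circRNAs with at least 15 counts, 1.40 to 1.62 per degree of freedom), so none was taken for a library deposited more than once. This does not show separate precipitations, which the labels do not state either, and they were treated as 3 samples because the labels list them so. Results that rest on IgG are also given as medians with each line's IgG libraries added up into 1 sample. That fit takes its spread from the RIP libraries, so it cannot show whether the IgG libraries were separate samples.

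The 42 circRNAs held 5338 of the 34348 circRNA counts in the RIP, or 15.5%. All 42 were counted in each of the 6 RIP libraries, as were 297 of all circRNAs. Their median sum was 101 counts, against 7 for the 1307 circRNAs that passed the filter for testing (at least 2 counts in at least 3 libraries), which all 42 passed. In Sens RIP they held 14.5%, 14.3% and 14.3% of a library's circRNA counts, and in Res RIP 16.6%, 15.8% and 17.2%. The Res libraries were all above the Sens libraries, by 2.16 percentage points on average (16.5% ± 0.681 against 14.4% ± 0.0681, SD, n = 3). This is a description with no test, since these counts chose the members. With the left-out circRNAs added back, the direction turned, to 30.3% ± 0.881 in Res and 39.6% ± 0.342 in Sens.

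In IgG the 42 took a smaller share, 6.36%, 6.43% and 5.10% in Sens and 5.18%, 5.73% and 4.90% in Res. These ranges overlapped (mean difference -0.690 percentage points, two-sided exact permutation p = 0.3, where 3 against 3 cannot go below 0.1). The overlap held only without the left-out circRNAs. With them added back, the shares were 8.86% ± 0.990 in Res IgG and 25.4% ± 1.29 in Sens IgG (exact permutation p = 0.1). Per 1000 ERCC counts the order was reversed, with 3.60 ± 0.365 member counts in Res IgG and 1.31 ± 0.169 in Sens IgG (exact permutation p = 0.1), and with ERCC counts in the denominator the shares were 0.337% and 0.128%.

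**Figure D1:**
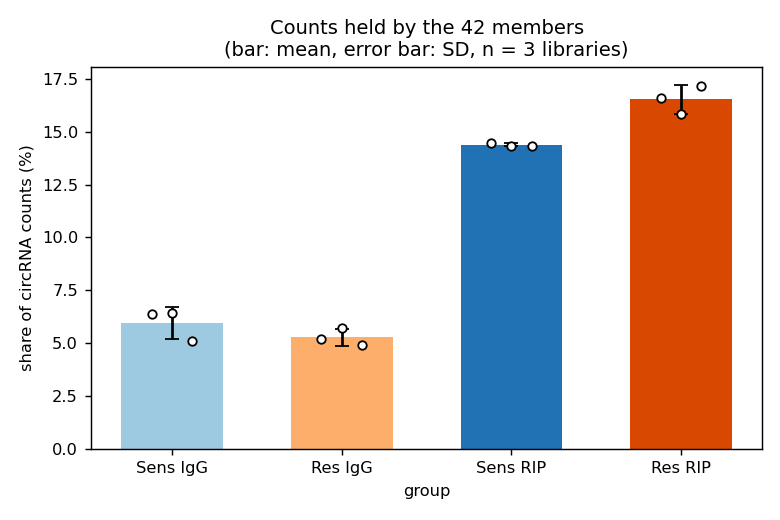
Share of a library's circRNA counts (y axis, %) held by the 42 circRNAs in each group (x axis). Bars are means, error bars SD and points the 3 libraries; the RIP shares lie between 14.3% and 17.2% and the IgG shares between 4.90% and 6.43%.

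The most abundant of the 42 was hsa_circ_0001756, with 98, 91 and 63 counts in Sens RIP and 61, 91 and 58 in Res RIP. It was also present in every IgG library, with 24, 8 and 15 counts in Sens and 17, 13 and 17 in Res. Next came hsa_circ_0000745, with 51, 41 and 31 counts in Sens RIP and 48, 61 and 42 in Res RIP. It stood out for its background, having 31, 21 and 22 counts in Sens IgG and 39, 66 and 60 in Res IgG. The third, hsa_circ_0005615, had a lower background of 10, 5 and 7 counts in Sens IgG and 5, 8 and 6 in Res IgG, against 37, 38 and 31 in Sens RIP and 34, 70 and 42 in Res RIP. Its normalised level was nearly the same in both lines, at 12405 ± 1147 and 12226 ± 2473 CPM (counts per 1000000, scaled with TMM; SD, n = 3).

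The fourth, hsa_circ_0001417, differed from those above in having no count in any IgG library. Its RIP counts were 16, 16 and 22 in Sens and 40, 72 and 49 in Res, and the lines did not overlap. Of the other members of the first 10, hsa_circ_0007476, hsa_circ_0001847 and hsa_circ_0007132 were absent from Sens IgG, hsa_circ_0000799 was absent from Res IgG, and hsa_circ_0001461 had 1 count in each Sens IgG library. These 10 circRNAs held 43.0% of the RIP counts of all 42. The remaining sums fell off gradually from 140 counts to 61.

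**Figure D2:**
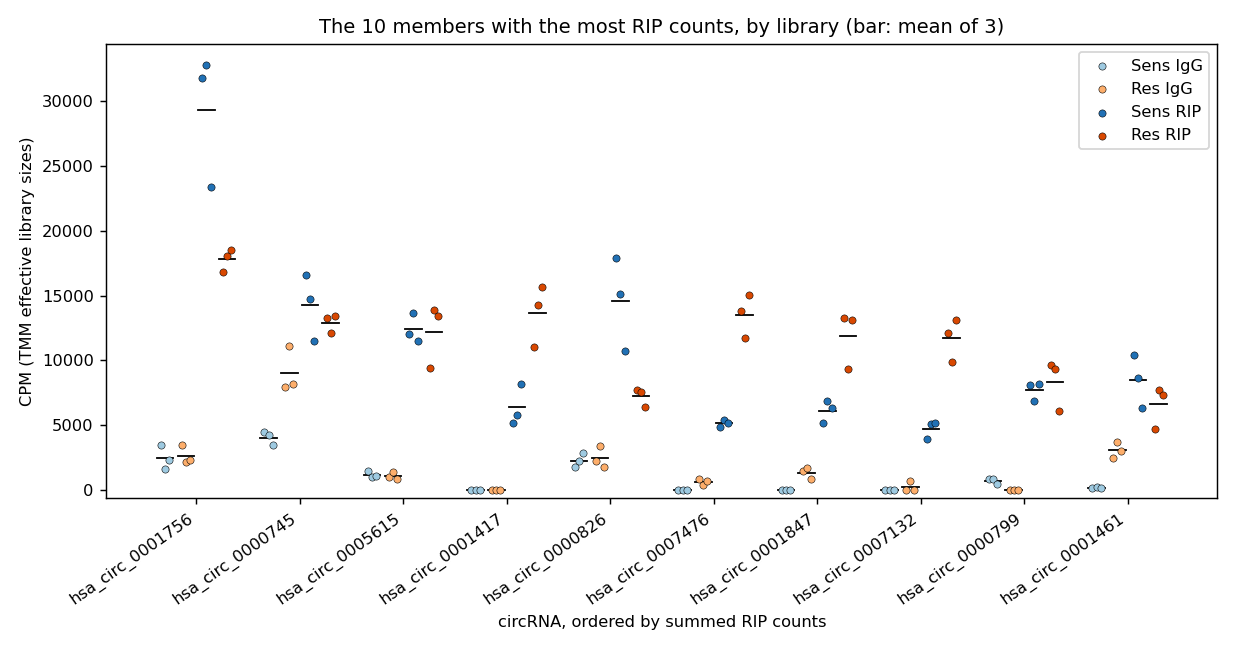
CPM on TMM effective library sizes (y axis) of the 10 circRNAs with the most RIP counts (x axis), in Sens IgG, Res IgG, Sens RIP and Res RIP. Points are libraries and bars are means of 3; hsa_circ_0001756 had the highest mean, 29334 CPM in Sens RIP, and hsa_circ_0001417 was at 0 in all 6 IgG libraries.

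The circRNAs fell into 4 classes by their IgG counts, which the threshold of the rule had not used. The left-out list bears on these classes. Each of its 16 circRNAs had IgG counts, and 62.5% had them in both lines. Of the 42, 10 had no IgG count in either line, 13 were seen only in Res IgG, 6 only in Sens IgG and 13 in both. Among the 1945 circRNAs detected in the RIP of both lines, 69.8% had no IgG count and 5.66% were seen in IgG of both lines, against 23.8% and 31.0% of the 42. The next tier by abundance, 95 circRNAs with 30 to 60 summed RIP counts, lay between, with 33.7% and 21.1%. These lists differ in abundance, which was not matched, so the shares are a description only. Detection within a line was nearly all or none. In Sens IgG 18 members were in all 3 libraries, 23 in none and 1 in between. In Res IgG 23 were in all 3, 16 in none and 3 in between.

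The members never seen in IgG were, by abundance, hsa_circ_0001417, hsa_circ_0003496, hsa_circ_0000418, hsa_circ_0006117, hsa_circ_0001360, hsa_circ_0024085, hsa_circ_0084582, hsa_circ_0007367, hsa_circ_0005991 and hsa_circ_0083996. On the TMM scale, 3 counts over a line's IgG libraries were taken as the limit. RIP levels in Sens were then at least 15.9-fold above IgG for hsa_circ_0007367, the lowest of the 10, and at least 39.0-fold for hsa_circ_0001417, the highest. In Res the corresponding limits ran from at least 14.7-fold for hsa_circ_0005991 to at least 83.1-fold for hsa_circ_0001417. With circRNA column totals the limits of these circRNAs were lower, 3.93 and 9.68 in Sens and 7.45 and 42.1 in Res. The spike-in scale gave higher ones. hsa_circ_0084582 had 19, 16 and 14 counts in Sens RIP and 13, 16 and 14 in Res RIP, which after scaling was 1.53-fold lower in Res and not called (edgeR adjusted p = 0.57). The widest spread between libraries was that of hsa_circ_0005991, with 27, 3 and 13 counts in Sens RIP and 7, 14 and 8 in Res RIP.

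Between these lay the other 7 circRNAs without IgG counts. hsa_circ_0003496 had 24, 10 and 12 counts in Sens RIP and 26, 31 and 29 in Res RIP. hsa_circ_0000418 had 10, 10 and 11 counts in Sens RIP and 25, 41 and 23 in Res RIP, and hsa_circ_0006117 had 14, 6 and 8 in Sens RIP and 20, 34 and 27 in Res RIP. In both of the latter every Res library was above every Sens library, yet neither passed the test between lines described below (log2 difference 1.04, SE 0.36, edgeR adjusted p = 0.10 for hsa_circ_0000418, and 1.08, SE 0.37, adjusted p = 0.11 for hsa_circ_0006117). hsa_circ_0007367 was lower throughout, with 6, 9 and 7 counts in Sens RIP and 17, 18 and 18 in Res RIP, and was not called either (log2 difference 0.82, SE 0.44, adjusted p = 0.48). The lines overlapped in hsa_circ_0001360, with 14, 15 and 12 counts in Sens RIP and 21, 27 and 14 in Res RIP, and in hsa_circ_0024085, with 14, 11 and 12 in Sens RIP and 14, 23 and 18 in Res RIP. hsa_circ_0083996 was the least abundant of the 10, with 5, 9 and 8 counts in Sens RIP and 9, 23 and 11 in Res RIP.

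At the other end, hsa_circ_0001380 had more counts in IgG than in the RIP. Its counts were 34, 32 and 24 in Sens IgG against 17, 5 and 11 in Sens RIP, and 19, 32 and 31 in Res IgG against 14, 7 and 7 in Res RIP. The RIP to IgG ratio of its mean CPM was 0.759 in Sens and 0.557 in Res, the only values under 1 among the 42 on this TMM scale. That order depended on the scale, since spike-in scaling gave ratios of 63.5 and 41.8. With circRNA column totals, 4 members lay under 1 in Sens (hsa_circ_0001380 at 0.182, hsa_circ_0001451 at 0.546, hsa_circ_0000745 at 0.858 and hsa_circ_0071106 at 0.893) and 3 in Res (hsa_circ_0001380 at 0.288, hsa_circ_0009061 at 0.603 and hsa_circ_0000745 at 0.729). The 3 highest IgG sums in Sens belonged to hsa_circ_0001380 (90 counts), hsa_circ_0000745 (74) and hsa_circ_0001756 (47), which together made 45.8% of all IgG counts of the members there. In Res they belonged to hsa_circ_0000745 (165), hsa_circ_0001380 (82) and hsa_circ_0001461 (56), 37.6% of the members' IgG counts.

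**Figure D3:**
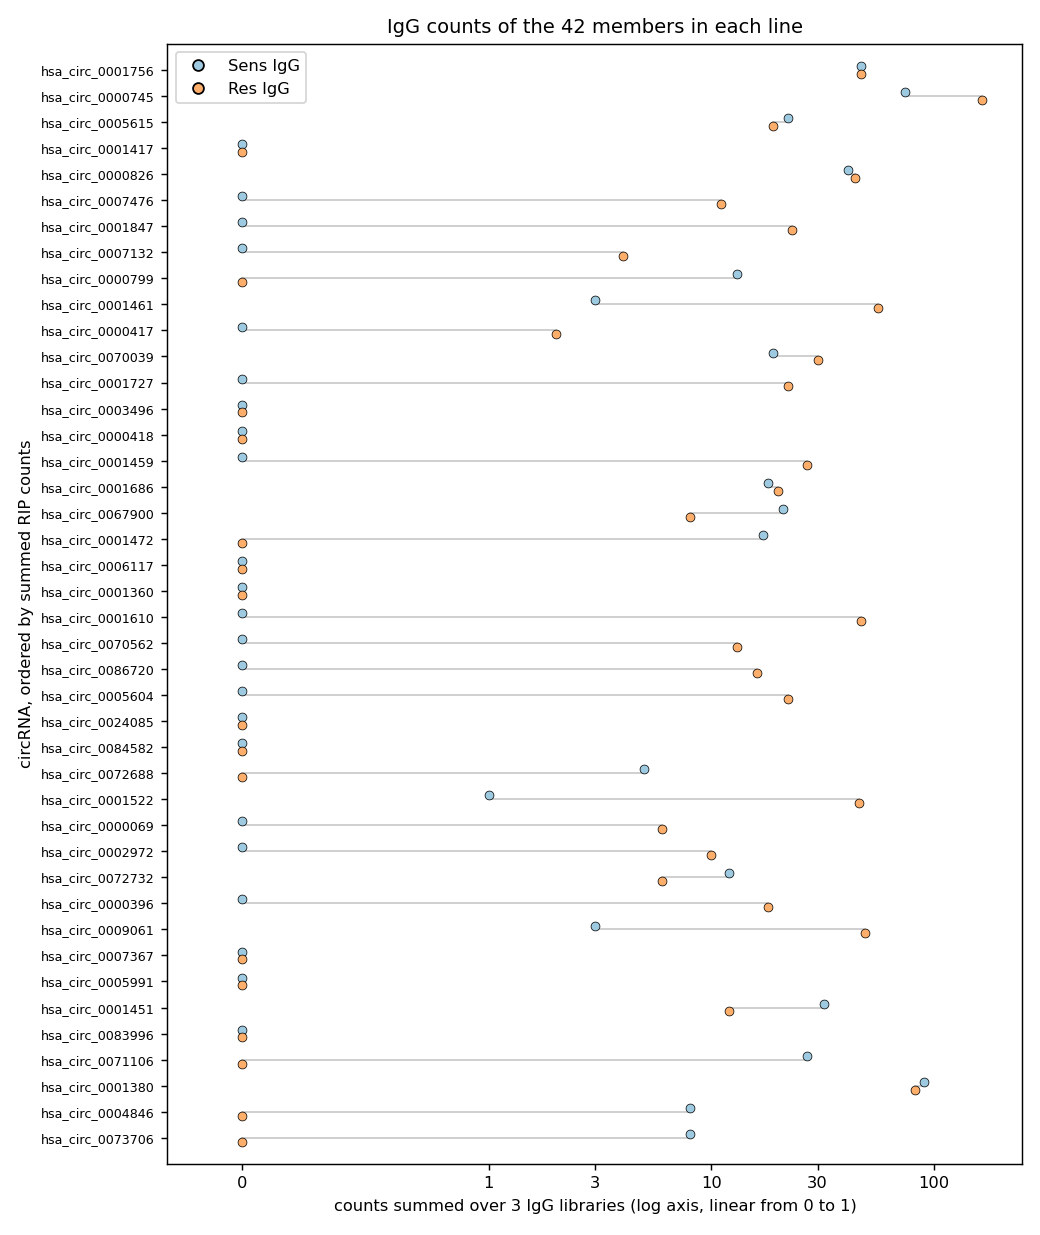
Counts summed over the 3 IgG libraries of a line (x axis, log scale, linear from 0 to 1) for each of the 42 circRNAs (y axis, ordered by RIP counts), with Sens IgG and Res IgG as separate points joined by a line. Points at 0 in both lines mark the 10 circRNAs never seen in IgG, and the highest sum is 165 for hsa_circ_0000745 in Res IgG.

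Across the 42, the RIP to IgG ratio spanned a wide range in both lines. In Sens, 16 members with over 3 IgG counts had ratios of mean CPM from 0.759 to 22.2, with a median of 6.77, and 23 without IgG counts lay at least 11.4-fold to at least 44.9-fold above the limit. The other 3 had 1 to 3 IgG counts, with ratios of summed counts of 52.3 for hsa_circ_0001461 (95% exact interval 17.2 to 259), 58.0 for hsa_circ_0001522 (9.56 to 2375) and 30.1 for hsa_circ_0009061 (9.61 to 152). In Res, 25 members had ratios from 0.557 to 52.3, with a median of 5.02, and 16 lay at least 10.4-fold to at least 83.1-fold above the limit. The remaining member, hsa_circ_0000417, had 2 IgG counts and a ratio of 59.6 (15.9 to 501). With groups at 0 taken at 3 counts, the median over the 42 was 20.7 in Sens and 11.6 in Res, and it was 1776 and 924 on the spike-in scale. With circRNA column totals it was 5.11 in Sens and 5.77 in Res, so the order of the lines turned.

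The first comparison was of the amount of each circRNA in the RIP of the lines, fitted over all 1307 circRNAs. On the TMM scale 5 of the 42 were higher and 3 lower in Res RIP than in Sens RIP (edgeR's quasi-likelihood test, adjusted p under 0.05 over 1307 circRNAs). Over all tested circRNAs, 1.30% were called higher and 1.07% lower, 2.37% in all, against 19.0% of the 42, 9.47% of the next tier and 4 of the 16 left-out circRNAs that were tested. Nothing is read from these shares: the lists differ in depth, and all 5 members called higher reached 61 counts on Res RIP alone and none on Sens RIP alone, so they entered through the group where they were high. The median log2 difference was 0.13 over the 42 and 0 over all tested, with 24 of the 42 above 0. The ratio of mean CPM lay between 0.5 and 2 for 32 of the 42, and 34 were not called.

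The 5 circRNAs called higher entered through their Res RIP counts. Their p-values and the separation of the lines are therefore given as a description only. The circRNA with the largest rise was hsa_circ_0001610, with 6, 5 and 5 counts in Sens RIP and 18, 43 and 22 in Res RIP. No Res library overlapped the Sens libraries, and the level was 3.66-fold higher (log2 difference 1.87, SE 0.40, adjusted p = 0.00049). In hsa_circ_0007476 the counts went from 15, 15 and 14 to 50, 59 and 47, a 2.62-fold rise (log2 difference 1.37, SE 0.29, adjusted p = 0.00049). In hsa_circ_0007132 they went from 12, 14 and 14 to 44, 50 and 41, a 2.49-fold rise (log2 difference 1.30, SE 0.31, adjusted p = 0.0024). The lines were separated in each of these. hsa_circ_0001417, whose counts are given above, rose 2.14-fold (adjusted p = 0.0083). hsa_circ_0001847 rose 1.94-fold, from 16, 19 and 17 counts to 48, 47 and 41 (adjusted p = 0.046).

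Each of the 3 lower circRNAs was present in Sens IgG. hsa_circ_0000826 went from 55, 42 and 29 counts in Sens RIP to 28, 38 and 20 in Res RIP, 2.02-fold lower after scaling (log2 difference -1.01, SE 0.26, adjusted p = 0.0089). In all 3 the raw counts of the lines overlapped and the scaled values did not. hsa_circ_0071106 went from 18, 15 and 9 counts to 6, 11 and 4, 2.85-fold lower (adjusted p = 0.046), and hsa_circ_0001756 was 1.65-fold lower (adjusted p = 0.037). Their calls depended on the scale. Scaling to spike-in totals gave 13 members higher and 0 lower, DESeq2 gave 6 higher and 0 lower, and limma-voom gave 2, both higher. The spike-in scale moved the median difference of all tested circRNAs from 0 to 0.39. No alternative turned the sign of any of the 8.

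The calls also moved when single libraries were left out. With the filter applied again, 5 of the 42 were called without Sens RIP replicate 2, Sens RIP replicate 3 or Res RIP replicate 2, all higher. With the same 1307 circRNAs tested, the counts were 3, 6 and 2 in that order, and the 6 included 2 lower. On that set, 4 were called without Res RIP replicate 1, 3 without Res RIP replicate 3 or Res IgG replicate 2 (all higher in each), and 5 without Sens IgG replicate 1, of which 1 was lower. hsa_circ_0007476 was called in all 34 alternatives, hsa_circ_0001610 and hsa_circ_0007132 in 33, hsa_circ_0001417 in 29, hsa_circ_0001847 in 20, hsa_circ_0000826 in 16, and hsa_circ_0001756 and hsa_circ_0071106 in 9 each. All alternatives kept the same 42 members, so these counts are no separate support.

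**Figure D4:**
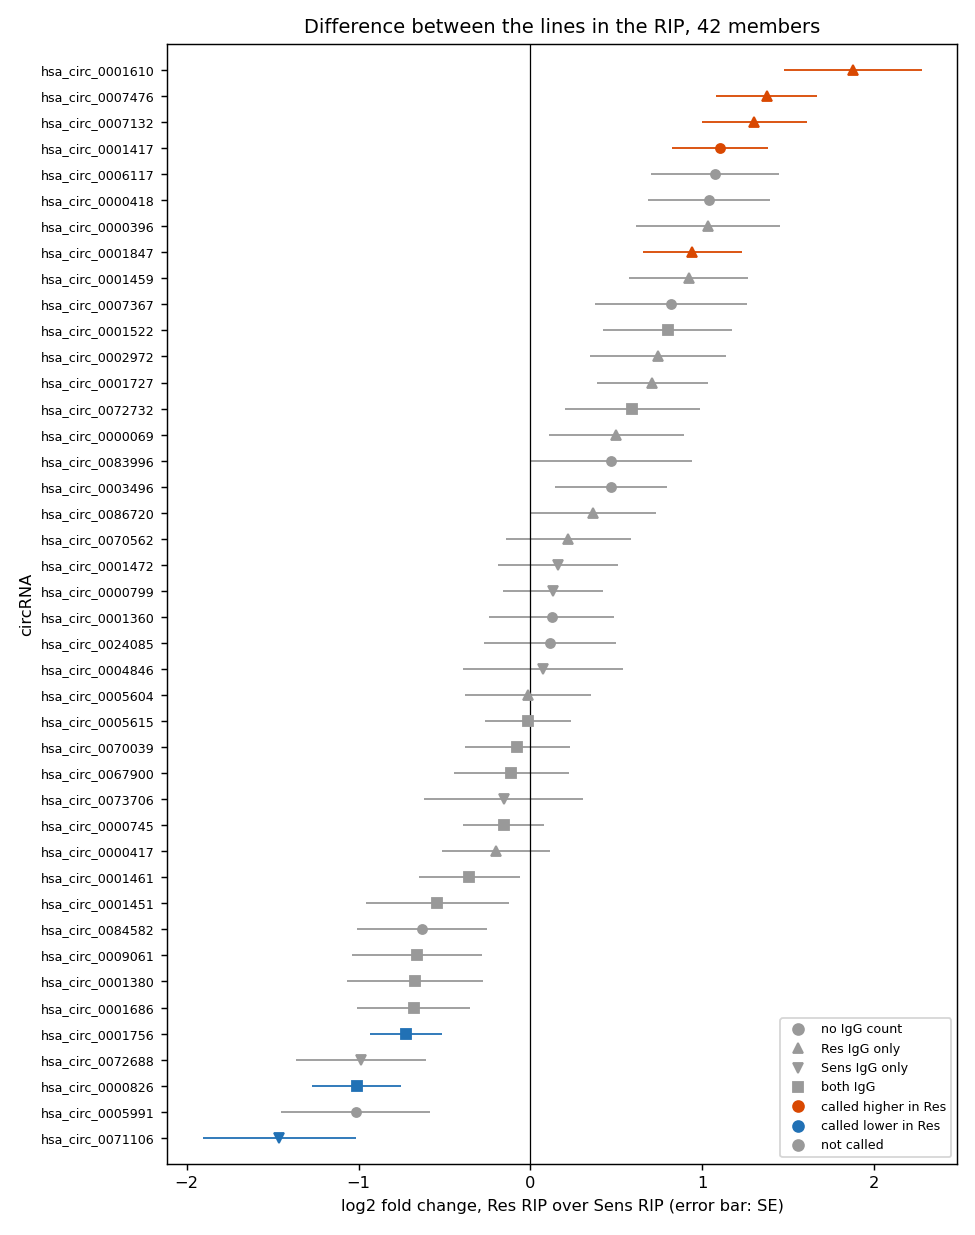
Log2 fold change of Res RIP over Sens RIP (x axis, TMM scale, error bars SE) for each of the 42 circRNAs (y axis). Colours mark calls at adjusted p under 0.05 and symbols the IgG class; values run from -1.46 for hsa_circ_0071106 to 1.87 for hsa_circ_0001610, with 5 called higher and 3 lower.

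The difference between the lines in the RIP was not the same in each IgG class. Its median log2 value was 0.74 for the 13 circRNAs seen only in Res IgG, with 11 above 0, and 0.47 for the 10 without IgG counts, with 8 above 0. It was -0.04 for the 6 seen only in Sens IgG, with 3 above 0, and -0.36 for the 13 seen in both, with 2 above 0. These 4 medians are a description, and the difference among classes was not tested.

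The second question concerned the background itself. Between the IgG libraries of the lines 24 of the 42 were called, 16 higher and 8 lower in Res, or 57.1%. Over all 1307 circRNAs 67.6% were called, 49.3% higher and 18.3% lower, against 52.6% of the next tier and 14 of the 16 left-out circRNAs. These shares are not read as a result. The filter also admits circRNAs through their IgG counts alone, and the 10 members without IgG counts could not be called. The split moved with the scale, to 14 higher and 13 lower with circRNA column totals and 14 higher and 12 lower with TMMwsp factors, a variant of TMM for tables with many zeros. With each line's IgG libraries added up into 1 sample, the median log2 difference was 0 over the 42 and 1.71 over all tested. With 3 libraries it was 0.02 and 1.68. The summed fit takes its spread from the RIP libraries, so no call is read from it. The rise with the smallest p was in hsa_circ_0001610, from 0 in every Sens IgG library to 9, 12 and 26 counts in Res IgG, at least 15.04-fold (adjusted p = 3.12e-12). hsa_circ_0001459 went from 0 to 4, 16 and 7 counts, at least 9.08-fold, and hsa_circ_0001847 from 0 to 7, 10 and 6, at least 7.98-fold. For hsa_circ_0005604 (8, 7 and 7 counts in Res IgG) and hsa_circ_0001727 (7, 5 and 10) the rise from 0 was at least 7.65-fold and at least 7.38-fold.

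Of the circRNAs with counts in both lines, hsa_circ_0001461 rose from 1, 1 and 1 counts to 12, 22 and 22, a ratio of summed counts of 18.8 after scaling (95% exact interval 6.10 to 93.8; adjusted p = 3.54e-11). hsa_circ_0009061 rose from 1, 1 and 1 to 10, 19 and 20 (ratio 16.4, interval 5.30 to 82.4), and hsa_circ_0001522 from 0, 1 and 0 to 10, 14 and 22 (ratio 46.3, interval 7.90 to 1867). hsa_circ_0000745, the member with the most IgG counts, rose 2.24-fold (adjusted p = 3.85e-05). The 2 other circRNAs among the 10 rises with the smallest p were hsa_circ_0000396, with 3, 11 and 4 counts in Res IgG, and hsa_circ_0086720, with 8, 4 and 4; both were at 0 in Sens IgG.

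Falls were led by hsa_circ_0071106, from 14, 1 and 12 counts in Sens IgG to 0 in every Res IgG library, at least 8.28-fold lower (adjusted p = 3.52e-07). hsa_circ_0001472 fell from 4, 8 and 5 counts to 0, at least 5.996-fold, and hsa_circ_0000799 from 6, 4 and 3 to 0, at least 4.32-fold. hsa_circ_0073706, hsa_circ_0004846 and hsa_circ_0072688 also fell to 0, from sums of 8, 8 and 5 counts. The other 2 stayed detected: hsa_circ_0001451 fell 2.53-fold, from 16, 9 and 7 counts to 3, 7 and 2, and hsa_circ_0067900 fell 2.40-fold, from 10, 4 and 7 to 4, 1 and 3.

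The study's design text asks which circRNAs changed their association with IGF2BP2 as resistance was acquired. As a ratio, the RIP over IgG enrichment differed between the lines for 20 of the 42, 15 lower and 5 higher in Res (edgeR interaction test, adjusted over 1307). The 10 members without IgG counts had SEs of 268.5 to 2710 in this fit and could not be called. Over all tested circRNAs 19.0% were called, 13.4% lower and 5.59% higher. The share was 47.6% in the 42 and 35.8% in the next tier, and 10 of the 16 left-out circRNAs were called. Nothing is read from these shares, since the lists differ in depth and the change holds the RIP counts that chose the members. The median log2 change was -0.75 over the 42 and -1.32 over all tested. Spike-in scaling called 19 of the same 20 and moved the median of all tested to -0.50. The split was less one-sided on other scales: circRNA column totals called 8 higher and 10 lower, 15 of them among the 20, with a median of 0.18 over the 42, and TMMwsp factors called 7 higher and 11 lower, with a median of -0.06. With each line's IgG libraries added up into 1 sample, the median was -0.61 over the 42 and -1.33 over all tested. No call is read from that fit, since its spread comes from the RIP libraries.

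Among the circRNAs with lower enrichment in Res, hsa_circ_0001461 had the smallest p. Its RIP counts were 32, 24 and 17 in Sens and 17, 39 and 23 in Res, so the lines overlapped there, while its IgG counts were 1, 1 and 1 against 12, 22 and 22. The ratio of mean CPM went from 50.7 in Sens, which rests on 3 IgG counts, to 2.17 in Res (log2 change -4.38, SE 0.64, adjusted p = 2.71e-09). hsa_circ_0009061 had 7, 11 and 24 counts in Sens RIP and 16, 15 and 6 in Res RIP. Its ratio of mean CPM went from 30.3, also on 3 Sens IgG counts, to 1.17 (log2 change -4.49, SE 0.72, adjusted p = 1.12e-07). For hsa_circ_0005604, with 9, 14 and 17 counts in Sens RIP and 19, 23 and 13 in Res RIP, the ratio went from at least 29.1 to 3.72 (adjusted p = 5.77e-05).

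The other strong decreases shared that form. hsa_circ_0001522 had a ratio of mean CPM of 46.6 in Sens, which rests on 1 IgG count, and 2.32 in Res. Its RIP counts were 13, 8 and 6 in Sens and 26, 16 and 21 in Res. hsa_circ_0001459 went from at least 23.5-fold to 4.95-fold, hsa_circ_0001727 from at least 30.3-fold to 6.70-fold, hsa_circ_0001847 from at least 37.5-fold to 9.11-fold, hsa_circ_0001610 from at least 11.4-fold to 2.78-fold and hsa_circ_0086720 from at least 25.2-fold to 5.53-fold. hsa_circ_0000745 was measured on all sides, going from 3.54-fold to 1.43-fold (log2 change -1.32, SE 0.35, adjusted p = 0.0024). For the 15 circRNAs the median log2 difference between lines was 0.71 in the RIP (range -1.01 to 1.87) and 4.96 in IgG. For each circRNA the fitted enrichment change is the RIP difference minus the IgG difference, so the values are not independent. Why the IgG level differed was not tested. Among the 15, 10 had a group at 0, where a fitted value is no bound; with such groups at 3 counts the median enrichment change was -2.04 and the median IgG difference 2.88.

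The 5 circRNAs with higher enrichment in Res were all at 0 in Res IgG. hsa_circ_0001472 had 18, 16 and 9 counts in Sens RIP and 25, 26 and 15 in Res RIP, and went from 5.06-fold to at least 34.2-fold (adjusted p = 0.00015). hsa_circ_0000799 had 25, 19 and 22 counts in Sens RIP and 35, 47 and 19 in Res RIP, and went from 10.9-fold to at least 50.8-fold (adjusted p = 0.00055). hsa_circ_0071106 went from 3.57-fold to at least 10.4-fold although its RIP counts fell, and hsa_circ_0004846 and hsa_circ_0073706 went from 7.03-fold and 7.16-fold to at least 18.9-fold and at least 17.1-fold. For the 5, the median log2 difference between lines was 0.07 in the RIP and -4.80 in IgG, and with groups at 0 taken at 3 counts the median IgG difference was -2.11 and the enrichment change 1.54.

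**Figure D5:**
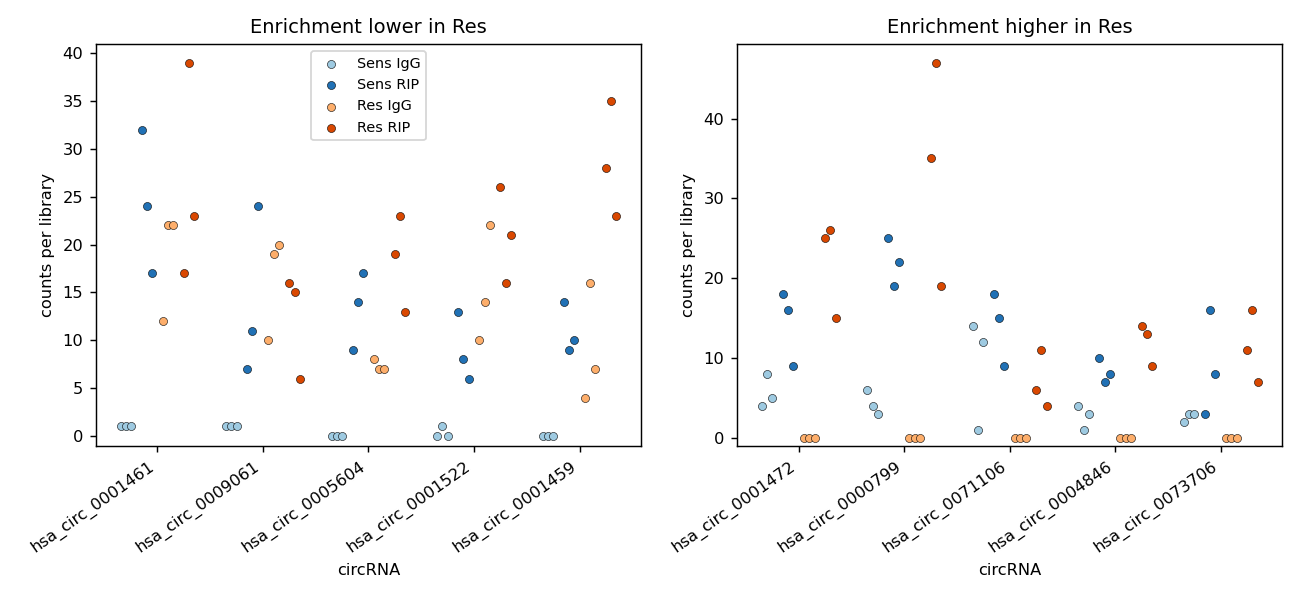
Counts per library (y axis) in Sens IgG, Sens RIP, Res IgG and Res RIP for the 5 circRNAs with the strongest lower enrichment in Res (left) and the 5 with higher enrichment (right), with the circRNAs on the x axes. On the left Sens IgG counts are 0 or 1 in every library, and on the right Res IgG counts are 0 in every library.

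The submitters defined their enrichment as a difference rather than a ratio, RIP minus IgG in reads per 1000000 (RPM), and their delta as Res minus Sens. Over circRNA counts alone, the delta was below 0 for 14 of the 42 and above 0 for 28, while it was below 0 for 58.5% of the 1307. Its median was 550 RPM over the 42 and -262 over all tested. The delta holds the RIP counts that chose the members, and the filter also admits circRNAs through IgG counts alone. Nothing about the 42 is read from this contrast. The lowest values were -4110 RPM (SE 807) for hsa_circ_0001461, -3835 (SE 1362) for hsa_circ_0009061 and -3583 (SE 1976) for hsa_circ_0001756. The highest were 6058 (SE 2446) for hsa_circ_0001380, whose IgG counts exceeded its RIP counts, and 4527 (SE 950) for hsa_circ_0001417. The ratio and the difference did not always point the same way. Of the 15 circRNAs with a lower ratio in Res, 8 had a delta below 0 and the rest above 0, among them hsa_circ_0007476 at 4464 RPM (SE 746), whose RIP counts rose. Several deltas on both sides of 0 were smaller than their SE, so their sign is uncertain. Examples are 80.4 (SE 860) for hsa_circ_0001610 and -330 (SE 827) for hsa_circ_0070562. All 5 circRNAs with a higher ratio had a delta above 0. Per 1000 ERCC counts the delta was below 0 for 9 of the 42 and for 37.9% of all tested, so the majority of tested circRNAs changed side on that scale.

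At the edge of the rule, hsa_circ_0001380, hsa_circ_0004846 and hsa_circ_0073706 entered with 61 summed RIP counts each. hsa_circ_0008351, hsa_circ_0003472 and hsa_circ_0006109 stayed out with 59. The last of these had 2, 3 and 3 counts in Sens RIP and 20, 19 and 12 in Res RIP with no IgG count, so the boundary separates circRNAs of much the same abundance.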

How the data were processed

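The deposited table holds whole-number counts of circRNAs and of spike-in transcripts (57 ERCC rows) in 12 libraries. Per the labels' protocols, the authors added spike-in to equal amounts of RNA and used RUVSeq for scaling, which the table does not contain. GRCh37 is named in the submitters' processing notes. Aligner, circRNA caller and counting rule are not given in the sources used here, and reads shared between circRNAs of one locus cannot be assessed. None of the circRNA identifiers matched the gene table used here (0 rows).

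Library sizes and tests used circRNA rows only. edgeR 4.0.16 in R 4.3.3 was run with TMM factors on 4 group coefficients, over the 1307 circRNAs that 3 or more libraries held at 2 or more counts, with Benjamini-Hochberg adjustment and a threshold of 0.05. The prior degrees of freedom came out infinite, which gives no circRNA a spread of its own. SEs are the log2 difference over the root of F. A group at 0 was taken as 3 counts over the group on the TMM scale ("at least"), so other scales give other limits. With 1 to 3 counts, exact 95% intervals of the ratio of summed counts are given. The scripts were tested on simulated data. Alternatives used DESeq2 1.42.0, limma 3.58.1, other scalings, filters and libraries.

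The 42 members and the lists were chosen with earlier results of these data known. Named circRNAs were the 10 with most RIP counts, up to 10 calls per direction and comparison by p, those without IgG counts, the 3 with most IgG counts per line, and 3 on each side of the threshold of 61; hsa_circ_0000417 and hsa_circ_0005991 as extremes were named after their values were seen. Replicate numbers were not used to pair the libraries in the main fit. Deviations of same-numbered libraries from their group means correlated between -0.0521 and 0.0503. At such low counts this cannot show whether same-numbered libraries were paired.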

Additional observations from a re-analysis of the deposited data

Results flagged for a closer look

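By the interaction test, 20 of the 42 circRNAs had a different enrichment over IgG in Res than in Sens. These differences are given as fitted log2 changes, Res minus Sens. The 10 circRNAs without IgG counts could not be called. Fitted values with an IgG group at 0 are no bounds. The decreases with counts in all 4 groups were -4.38 for hsa_circ_0001461, -4.49 for hsa_circ_0009061, -4.16 for hsa_circ_0001522, -1.32 for hsa_circ_0000745 and -1.13 for hsa_circ_0000826. The last of these, at adjusted p = 0.048, was called in 2 of 33 alternatives, and hsa_circ_0000745 in 22. Decreases with Sens IgG at 0 were -5.57 for hsa_circ_0005604, -4.92 for hsa_circ_0001459, -4.84 for hsa_circ_0001727, -4.68 for hsa_circ_0001847 and -4.73 for hsa_circ_0001610. They were -4.75 for hsa_circ_0086720, -4.59 for hsa_circ_0070562, -4.24 for hsa_circ_0000396, -3.71 for hsa_circ_0002972 and -3.20 for hsa_circ_0007476. These last 3 were called in 26, 14 and 5 of 33 alternatives. The increases, all with Res IgG at 0, were 5.35 for hsa_circ_0001472, 4.93 for hsa_circ_0000799, 4.34 for hsa_circ_0071106, 4.20 for hsa_circ_0004846 and 3.98 for hsa_circ_0073706, the last 2 called in 30 and 26 of 33 alternatives. The other calls held in 32 or 33. No explanation of these changes was tested.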

How the results depend on the processing

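The 8 calls between lines in the RIP became 13 with spike-in totals, 4 with no filter, 2 with limma-voom and 5 with the replicate block, and 2 to 9 when 1 library was left out. With the same 1307 circRNAs tested, an alternative chosen after seeing the data, they were 3 without Sens RIP replicate 2, Res IgG replicate 2 or Res RIP replicate 3, 2 without Res RIP replicate 2, 4 without Res RIP replicate 1 and 5 without Sens IgG replicate 1. Res IgG replicate 2 is outside that comparison; without it the prior degrees of freedom were 6.07. The 24 IgG calls ranged from 21 to 24 with 1 library left out, and the 20 enrichment changes from 12 (without Res IgG replicate 2, same circRNAs) to 19. Over all 52 calls of members, the call was kept 1515 times and lost 226 times, and no sign changed; the IgG difference of hsa_circ_0007132 had no value without Res IgG replicate 2, which holds its Res IgG counts. The replicate block moved no other count by over 1.5 times. The difference in share of IgG counts (-1.12 to -0.456 with 1 library left out) turned to 0.208 with ERCC in the denominator and 2.28 per 1000 ERCC counts. It widened to -16.5 with the left-out circRNAs. The difference in share of RIP counts (1.84 to 2.52) turned to -9.32 with the left-out circRNAs. The median log2 RIP to IgG ratio in Sens, 4.37, was 3.22 with TMMwsp factors, 3.93 with the stricter filter, 2.35 with column totals, 10.8 with spike-in totals and 3.30 to 4.15 with 1 library left out; in Res, 3.54, it was 3.13 with TMMwsp, 2.53, 9.85 and 3.06 to 3.68. Negative deltas went from 14 to 9 per 1000 ERCC counts. The cause of these shifts was not tested. Counts of 3 to 98 per library in the RIP limit single circRNAs.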

Other observations

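Replicate spread among the 42 circRNAs, in CPM, had a median coefficient of variation of 24.8% in Sens RIP (3.99% to 78.6%) and 20.2% in Res RIP (4.92% to 50.4%). The lowest in Sens RIP was that of hsa_circ_0001610, with 6, 5 and 5 counts, and the highest that of hsa_circ_0005991, with 27, 3 and 13. No group has more than 3 libraries, so no library was tested as standing apart.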
